A study of Homo sapiens with 9 samples.

Results

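The genes described here are targets of hypoxia-inducible factor 1 (HIF1) that act outside glycolysis: 29 genes for mitophagy, angiogenic and other secreted signals, collagen modification, histone demethylation, transcription, growth control and mitochondrial function. They were listed by name as known targets, but with earlier results of these data known, so the list is not independent of the values below. Each gene was read from the brightest probe set that carries its symbol alone, that is, the probe set with the highest mean over all 9 arrays. In this way 28 of the 29 were measured, among 19775 genes in all, and CA9 was not analysed here. The cells were H69, an established human small cell lung cancer line that grows in suspension and carries neuroendocrine features. They received PIK75, an inhibitor of the p110alpha isoform of phosphoinositide 3-kinase, at 100 nM, or TGX221, an inhibitor of the p110beta isoform, at a labelled dose of 1 mM, or DMSO as the control, each for 24 h in complete medium. Each group had 3 Affymetrix arrays, numbered 1, 3 and 5 for PIK75, 2, 3 and 5 for TGX221, and 1, 3 and 5 for control, and array values are given in that order throughout. The doses of the inhibitors differ, and a single cell line limits the model. Nothing states that the arrays came from separate cultures, so the p-values measure only the spread between these arrays.

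HIF1 is a pair of proteins, the oxygen-regulated subunit HIF1A and its constant partner ARNT. When oxygen is present the EGLN prolyl hydroxylases mark HIF1A for the VHL ubiquitin ligase, and when oxygen is short the subunit is spared, enters the nucleus and binds a short core, A or G followed by CGTG, in the promoters and enhancers of its targets. In many cell types phosphoinositide 3-kinase, AKT and mTOR signalling is also known to raise the synthesis of HIF1A protein. The protein was not measured on these arrays, which report transcripts.

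Promoters from RefSeq (build GRCh38.p14), running from 250 bases before to 50 bases after the start of a gene, were found for 23 of the 28 measured genes. They were searched on both strands for the core letters ACGTG and GCGTG. Of the 23, 19 (82.6%) held at least 1 of them, against 56.4% of the 15384 promoters of all measured genes. ACGTG was in 15 of the 23 (65.2%, against 24.1% of all) and GCGTG in 13 (56.5%, against 44.3%). The E-box CACGTG, which contains ACGTG on each strand and is also a site of MYC family factors, was in 8 (34.8%, against 8.9%). The median base composition was 68% G and C in these genes and 63% in all, and the part of composition in the motif shares was not tested. Among genes that fell with PIK75, as described further on, 14 of 16 promoters held ACGTG or GCGTG, and among the others 5 of 7 did. The 4 promoters with neither belonged to P4HA2, MXI1, RORA and TMEM45A.

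The 250 bases before the start of 7 of these genes are shown so that the cores can be read beside the values of the genes: 5 that fell with PIK75 and hold the core, and the pair ANGPTL4 and RORA, which rose. Capitals mark every match of ACGTG or GCGTG on either strand (CACGT and CACGC are the same letters read from the opposite strand), and each sequence runs 5′ to 3′ on the strand of its gene.
ANKRD37, chr4:185396591-185396840, plus strand: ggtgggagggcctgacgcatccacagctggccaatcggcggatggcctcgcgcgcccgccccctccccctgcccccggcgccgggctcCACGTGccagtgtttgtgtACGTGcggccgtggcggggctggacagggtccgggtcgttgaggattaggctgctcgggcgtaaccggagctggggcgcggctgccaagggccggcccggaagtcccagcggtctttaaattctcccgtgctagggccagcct
BNIP3, chr10:131981924-131982173, minus strand: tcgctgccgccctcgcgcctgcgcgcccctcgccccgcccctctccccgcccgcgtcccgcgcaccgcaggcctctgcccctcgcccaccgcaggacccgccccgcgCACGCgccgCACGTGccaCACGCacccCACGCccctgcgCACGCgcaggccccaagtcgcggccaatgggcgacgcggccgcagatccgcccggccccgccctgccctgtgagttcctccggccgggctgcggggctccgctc
PLOD2, chr3:146161185-146161434, minus strand: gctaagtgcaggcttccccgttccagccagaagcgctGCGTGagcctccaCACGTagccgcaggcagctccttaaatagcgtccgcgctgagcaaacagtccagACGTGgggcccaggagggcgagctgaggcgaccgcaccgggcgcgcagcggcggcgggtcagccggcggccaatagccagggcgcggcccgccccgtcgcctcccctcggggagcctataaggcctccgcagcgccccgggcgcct
FAM162A, chr3:122383932-122384181, plus strand: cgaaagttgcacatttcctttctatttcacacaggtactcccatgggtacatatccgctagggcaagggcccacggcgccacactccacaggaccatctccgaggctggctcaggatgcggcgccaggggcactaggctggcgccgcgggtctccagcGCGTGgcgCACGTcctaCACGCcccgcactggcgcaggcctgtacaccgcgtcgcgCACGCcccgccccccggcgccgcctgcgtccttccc
KDM4C, chr9:6757723-6757972, plus strand: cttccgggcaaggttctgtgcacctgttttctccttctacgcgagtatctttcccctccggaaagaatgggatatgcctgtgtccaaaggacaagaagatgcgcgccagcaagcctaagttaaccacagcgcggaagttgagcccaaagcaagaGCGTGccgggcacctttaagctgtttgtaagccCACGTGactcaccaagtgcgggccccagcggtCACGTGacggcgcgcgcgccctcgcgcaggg
ANGPTL4, chr19:8363905-8364154, plus strand: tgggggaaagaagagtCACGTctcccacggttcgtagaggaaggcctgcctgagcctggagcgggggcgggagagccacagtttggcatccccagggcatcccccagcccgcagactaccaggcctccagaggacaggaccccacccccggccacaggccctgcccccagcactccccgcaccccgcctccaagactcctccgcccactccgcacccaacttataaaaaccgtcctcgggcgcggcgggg
RORA, chr15:60627531-60627780, minus strand: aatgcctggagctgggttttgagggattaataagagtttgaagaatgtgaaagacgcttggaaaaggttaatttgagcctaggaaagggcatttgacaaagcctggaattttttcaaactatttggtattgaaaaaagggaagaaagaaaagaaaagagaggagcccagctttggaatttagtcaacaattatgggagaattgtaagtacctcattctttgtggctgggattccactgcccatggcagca
ANKRD37 carries an E-box whose first base lies 162 bases before the start and an ACGTG 143 bases before it. BNIP3 has 6 matches between 143 and 104 bases before the start, the most of the sequences shown. KDM4C has E-boxes at 63 and 31 bases and a GCGTG at 96 bases. ANGPTL4 holds 1 match, at 234 bases, and RORA holds none in this window. A match of letters is a description and not a measured binding site.

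Over all measured genes, arrays of the same group correlated at r = 0.996 to 0.999, and PIK75 arrays correlated with control arrays at 0.972 to 0.979. The median over genes lay between 8.20 and 8.23 on all 9 arrays, on the log2 scale of the deposited values. The spiked hybridization controls, which are added after labelling, read 0.35 higher on the PIK75 arrays than on the control arrays. The actin probe sets at the 3-prime end exceeded those at the 5-prime end by 0.47, 0.54 and 1.13 on the PIK75 arrays, by 0.26, 0.41 and 0.32 on the TGX221 arrays, and by 0.24, 0.29 and 0.44 on the control arrays. This difference, which grows when RNA is degraded or incompletely copied, was therefore highest with PIK75.

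PIK75 lowered most of these genes. Of the 28 measured, 20 were lower and 3 (ANGPTL4, RORA and JMJD6) were higher than in control cells at a limma adjusted p below 0.05, while 5 (CA12, ERO1A, AK4, PPFIA4 and TMEM45A) did not pass. The background was high, since 25.2% of all genes were called lower and 35.2% higher. At a fold of 2 or more the counts parted further: 15 of the 28 (53.6%) were called lower, against 3.57% of all genes, and at 1.5-fold 18 were lower and 0 higher, against 10.4% and 1.48%. The median log2 fold change was -1.09 for these genes and 0.09 for all genes, and 6 of the 28 were among the 100 genes with the lowest values, a count that was 3 without control array 3 and 9 without control array 5. The 20 and 3 genes called were also those whose PIK75 and control arrays did not overlap, which held in the same directions for 26.4% and 38.3% of all genes. In a bulk measurement, fewer cells with a transcript and less transcript per cell cannot be told apart.

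**Figure D1:**
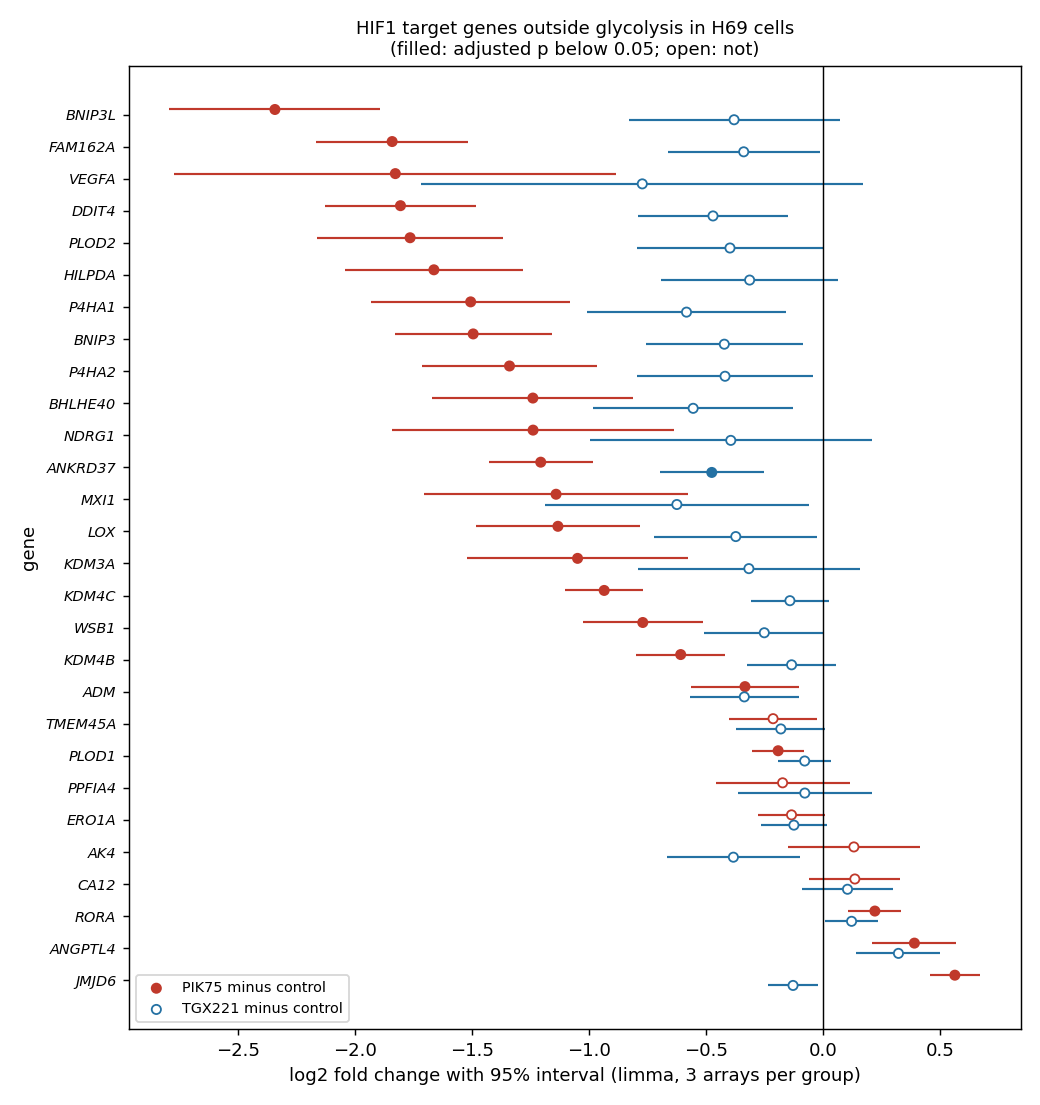
Log2 fold changes of the 28 measured genes with 95% intervals from limma (3 arrays per group), PIK75 minus control in red and TGX221 minus control in blue; filled points passed an adjusted p below 0.05. With PIK75 the values run from -2.34 for BNIP3L to 0.56 for JMJD6, and with TGX221 ANKRD37 (-0.47) is the single filled point.

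The mitophagy receptors BNIP3 and BNIP3L, which sit in the outer mitochondrial membrane and bind autophagosome proteins, fell strongly. BNIP3L read 8.21, 9.13 and 8.66 on the PIK75 arrays, 10.52, 10.88 and 10.48 on the TGX221 arrays, and 11.07, 11.30 and 10.64 on the control arrays. Its log2 fold change with PIK75 was -2.34 (SE 0.207, adjusted p = 1.17e-06), 5.07-fold, the 6th lowest of all genes. BNIP3 read 10.81, 11.40 and 10.90 with PIK75, 12.07, 12.22 and 12.04 with TGX221, and 12.56, 12.81 and 12.22 in control. All PIK75 arrays of both genes lay below all other arrays, and BNIP3 fell by 1.49 on the log2 scale (SE 0.155, adjusted p = 4.74e-06). The second probe set of each gene fell too, by 1.89 for BNIP3L and 1.52 for BNIP3. Among 15 measured partners in mitophagy and autophagy, 5 fell and 3 rose with PIK75, against 25.2% and 35.2% of all genes. The median of the 15 was -0.06. Of these, the mitophagy receptor BCL2L13 changed by -0.46, the cargo receptors OPTN and SQSTM1 by -0.44 and -0.28, and the receptor FKBP8 by 0.29, all at adjusted p of 0.00225 or lower.

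Of the secreted signals, VEGFA, the main angiogenic growth factor, had the widest spread of all 28 genes within each group. VEGFA read 8.81, 9.93 and 8.17 with PIK75, 9.67, 10.72 and 9.70 with TGX221, and 11.05, 11.38 and 9.97 in control. The highest PIK75 array was only just under the lowest control array. The log2 fold change was -1.83 with a wide 95% interval of -2.77 to -0.88 (adjusted p = 0.00338). ADM, the vasodilator peptide adrenomedullin, read 9.54, 9.63 and 9.62 with PIK75, 9.36, 9.69 and 9.73 with TGX221, and 10.00, 10.09 and 9.70 in control. Its PIK75 change of -0.33 passed at adjusted p = 0.0179 but not without control array 1 (0.0583), control array 3 (0.0804) or PIK75 array 1 (0.0545), and over its 19 alternatives the adjusted p ran from 1.05e-07 to 0.111. ANGPTL4, a secreted inhibitor of lipoprotein lipase, went the opposite way. It read 8.76, 9.05 and 8.96 with PIK75, 8.85, 8.71 and 9.01 with TGX221, and 8.52, 8.55 and 8.52 in control, so that every treated array lay above every control array. The PIK75 change of 0.39 passed (SE 0.0826, adjusted p = 0.00155), although it shrank to 0.04 (adjusted p = 0.685) when arrays were scaled to the hybridization controls, the weakest of its 19 alternatives.

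HILPDA, a lipid droplet protein that restrains lipid breakdown, fell. Its values were 10.92, 11.32 and 10.85 with PIK75, 12.18, 12.58 and 12.37 with TGX221, and 12.79, 13.02 and 12.26 in control. The PIK75 arrays were clear of all others, with a log2 fold change of -1.66 (SE 0.174, adjusted p = 5.39e-06), 3.16-fold.

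Enzymes that modify collagen formed the largest role among these genes, and 5 of its 6 members fell with PIK75, where 25.2% of all genes did. PLOD2, a lysyl hydroxylase of collagen telopeptides, read 9.31, 9.71 and 9.40 with PIK75, 10.69, 11.13 and 10.70 with TGX221, and 11.33, 11.61 and 10.77 in control. It fell by 1.76 (SE 0.183, adjusted p = 4.85e-06). P4HA1, a catalytic subunit of collagen prolyl 4-hydroxylase, read 9.09, 9.57 and 9.07 with PIK75, 10.13, 10.47 and 9.91 with TGX221, and 10.83, 11.12 and 10.30 in control. The groups of P4HA1 stood in the order PIK75, TGX221, control by mean, and the TGX221 and control arrays overlapped. P4HA1 fell by 1.5 with PIK75 (adjusted p = 3.55e-05) and the alternative catalytic subunit P4HA2 by 1.34 (adjusted p = 3.3e-05). LOX, the lysyl oxidase that crosslinks collagen and elastin, fell by 1.13 (adjusted p = 7.52e-05), with 8.22, 8.39 and 8.11 on the PIK75 arrays against 9.41, 9.73 and 8.97 on the control arrays. The paralogue PLOD1 moved little: its change of -0.19 passed the test (adjusted p = 0.00727) but was 1.14-fold. ERO1A, which reoxidises protein disulfide isomerase in the endoplasmic reticulum, did not pass on its brightest probe set (-0.13, adjusted p = 0.093).

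The collagens and the other collagen modifiers did not share this direction. Of 18 measured, 11 rose with PIK75 and 0 fell at an adjusted p below 0.05, where 35.2% of all genes rose and 25.2% fell. The counts were the same at an unadjusted p below 0.05. The median was 0.19 against 0.09 for all genes, smaller than the 0.35 by which the hybridization controls differed. P4HB, the disulfide isomerase that is the second subunit of prolyl 4-hydroxylase, changed by 0.59 (adjusted p = 3.12e-06) and the prolyl 3-hydroxylase P3H1 by 0.39 (adjusted p = 8.9e-05). The collagen chains COL1A2 and COL1A1 changed by 0.40 and 0.26, and both are also among the fibroblast markers described further on.

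Among the dioxygenases of the Jumonji family, KDM3A, KDM4C and the brightest probe set of KDM4B fell and JMJD6 rose. KDM3A read 9.40, 9.88 and 9.22 with PIK75, 10.17, 10.57 and 9.96 with TGX221, and 10.66, 10.93 and 10.06 in control, a PIK75 change of -1.05 (adjusted p = 0.00141). KDM4C read 8.96, 9.04 and 8.78 with PIK75, 9.72, 9.72 and 9.71 with TGX221, and 9.90, 9.96 and 9.71 in control. Its fall of 0.93 was among the most precise of these genes (SE 0.0762, adjusted p = 5.8e-07). KDM4B changed by -0.61 (adjusted p = 8.72e-05) on its brightest probe set, but by -0.03 (adjusted p = 0.629) on the mean of its 8 probe sets, of which 3 were called higher. JMJD6, a lysyl hydroxylase of RNA splicing proteins, read 10.83, 10.84 and 10.79 with PIK75, 10.12, 10.16 and 10.11 with TGX221, and 10.28, 10.28 and 10.20 in control. The rise of JMJD6 was 0.56 (SE 0.0494, adjusted p = 1.07e-06), and all 4 of its probe sets rose. Of 19 other histone demethylases and related enzymes, 12 fell and 3 rose, against 25.2% and 35.2% of all genes. The 4 of the 19 with the smallest p were KDM1B, which changed by -1.30, KDM2A by -0.96, PHF8 by -0.51 and KDM2B by -0.47.

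**Figure D2:**
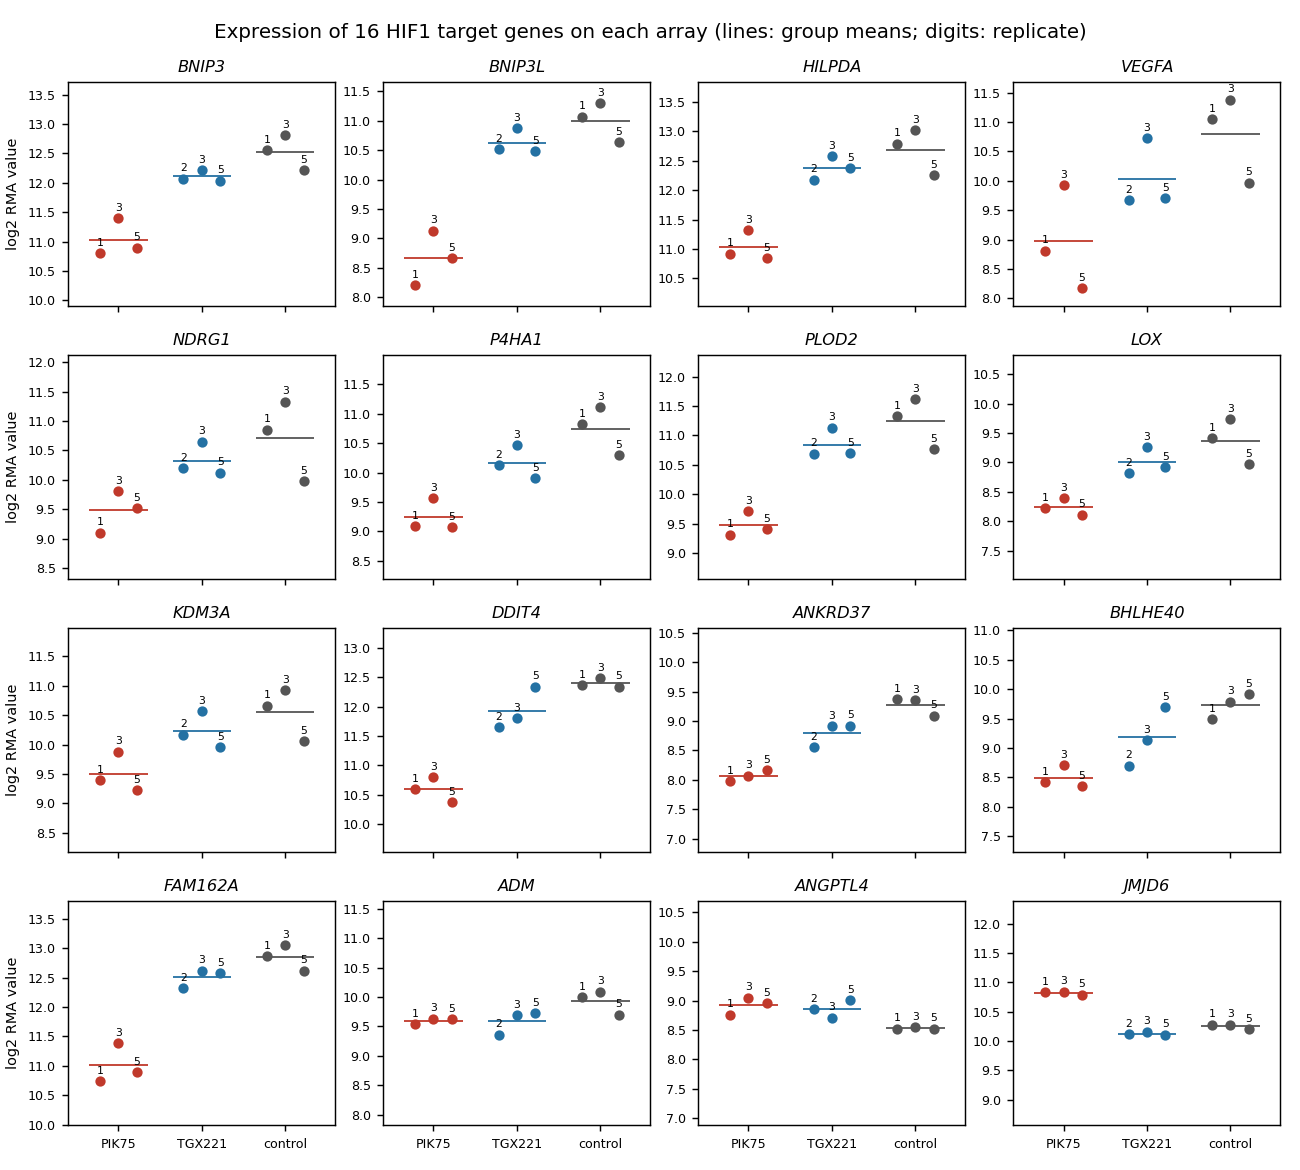
Deposited log2 values of 16 of the genes on every array, PIK75 in red, TGX221 in blue and control in grey, with digits for the replicate and lines for group means; the panels have different ranges but the same span. In 14 panels the PIK75 mean lies below the control mean, and in ANGPTL4 and JMJD6 it lies above.

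Of the 4 transcriptional regulators, 3 fell and RORA rose with PIK75, where 25.2% of all genes fell and 35.2% rose. BHLHE40, a repressor that binds E-boxes, read 8.42, 8.71 and 8.35 with PIK75, 8.70, 9.14 and 9.70 with TGX221, and 9.49, 9.79 and 9.92 in control, and fell by 1.24 with PIK75 (adjusted p = 0.000194). MXI1, a partner of MAX that opposes MYC, fell by 1.14 (adjusted p = 0.00261), with 8.18, 8.84 and 8.23 with PIK75 against 9.66, 10.08 and 8.93 in control. The highest PIK75 array of MXI1 was only just under its lowest control array. ANKRD37, an ankyrin repeat protein, read 7.98, 8.07 and 8.16 with PIK75, 8.56, 8.91 and 8.92 with TGX221, and 9.37, 9.36 and 9.09 in control. It fell by 1.21 with PIK75 (SE 0.102, adjusted p = 8.03e-07), and its 3 groups did not overlap. The nuclear receptor RORA changed by 0.22 with PIK75 (adjusted p = 0.00295), with 7.87, 7.89 and 7.93 with PIK75 against 7.64, 7.67 and 7.71 in control. This small rise of RORA turned to -0.13 (adjusted p = 0.125) when arrays were scaled to the hybridization controls, and over its 18 alternatives the adjusted p ran from 0.00245 to 0.894. Of 9 measured relatives of MXI1 in the MYC and MAX network, 4 rose and 0 fell: MYC by 0.49, MXD1 by 0.36, MYCL by 0.22 and MYCN by 0.16. That share is near the 35.2% of all genes called higher, and the MYCL and MYCN changes were smaller than the 0.35 by which the hybridization controls differed. At an unadjusted p below 0.05 the counts were 5 higher and 0 lower.

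All 3 regulators of growth and stress fell with PIK75, where 25.2% of all genes did. DDIT4, which restrains mTOR complex 1 through the TSC proteins, read 10.60, 10.80 and 10.38 with PIK75, 11.65, 11.80 and 12.34 with TGX221, and 12.37, 12.48 and 12.34 in control. Its control arrays were close together, and the PIK75 change was -1.80 (SE 0.148, adjusted p = 6.11e-07), 3.49-fold. NDRG1, a stress-responsive differentiation gene, varied more: it read 9.10, 9.81 and 9.52 with PIK75, 10.20, 10.65 and 10.12 with TGX221, and 10.85, 11.33 and 9.97 in control. NDRG1 fell by 1.24 (SE 0.277, adjusted p = 0.00229). WSB1, a substrate receptor of a ubiquitin ligase, fell by 0.77 (adjusted p = 0.000143).

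Of the other mitochondrial genes, FAM162A, a mitochondrial protein linked to hypoxic cell death, fell and AK4, an adenylate kinase of the matrix, did not pass. FAM162A read 10.74, 11.38 and 10.89 with PIK75, 12.32, 12.62 and 12.58 with TGX221, and 12.87, 13.05 and 12.62 in control. Its change of -1.84 was 3.58-fold (SE 0.15, adjusted p = 5.63e-07). AK4 read 9.87, 9.91 and 9.58 with PIK75, 9.26, 9.48 and 9.07 with TGX221, and 9.66, 9.89 and 9.40 in control, a PIK75 change of 0.13 (adjusted p = 0.384).

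The remaining genes did not pass. CA12, a carbonic anhydrase of the cell surface, changed by 0.14 (95% interval -0.06 to 0.33). Among its 7 probe sets, changes of -0.20, -0.26 and -0.27 were called lower and a change of 0.28 higher, adjusted over all probe sets. The liprin PPFIA4 changed by -0.17 (interval -0.46 to 0.11) and the membrane protein TMEM45A by -0.21 (interval -0.40 to -0.02, adjusted p = 0.0512). TMEM45A had means of 5.80 with PIK75, 5.84 with TGX221 and 6.01 in control, near the low end of the scale. Of 12 other carbonic anhydrases and acid transporters, 4 fell and 2 rose, against 25.2% and 35.2% of all genes. CA8, a relative without enzyme activity, changed by -1.5, the bicarbonate transporter SLC4A7 by -1.07, CA11 by -0.46 and CA4 by 0.22.

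Since the actin 3-prime excess was highest with PIK75, the fit was repeated with that value of each array as a covariate, an alternative chosen after the data were seen. The counts were then 17 lower and 3 higher, with a median of -0.86. The calls lost were VEGFA (adjusted p = 0.0949), ADM (0.0859) and MXI1 (0.0507), and for VEGFA and MXI1 these were the highest p of their 19 alternatives.

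**Figure D3:**
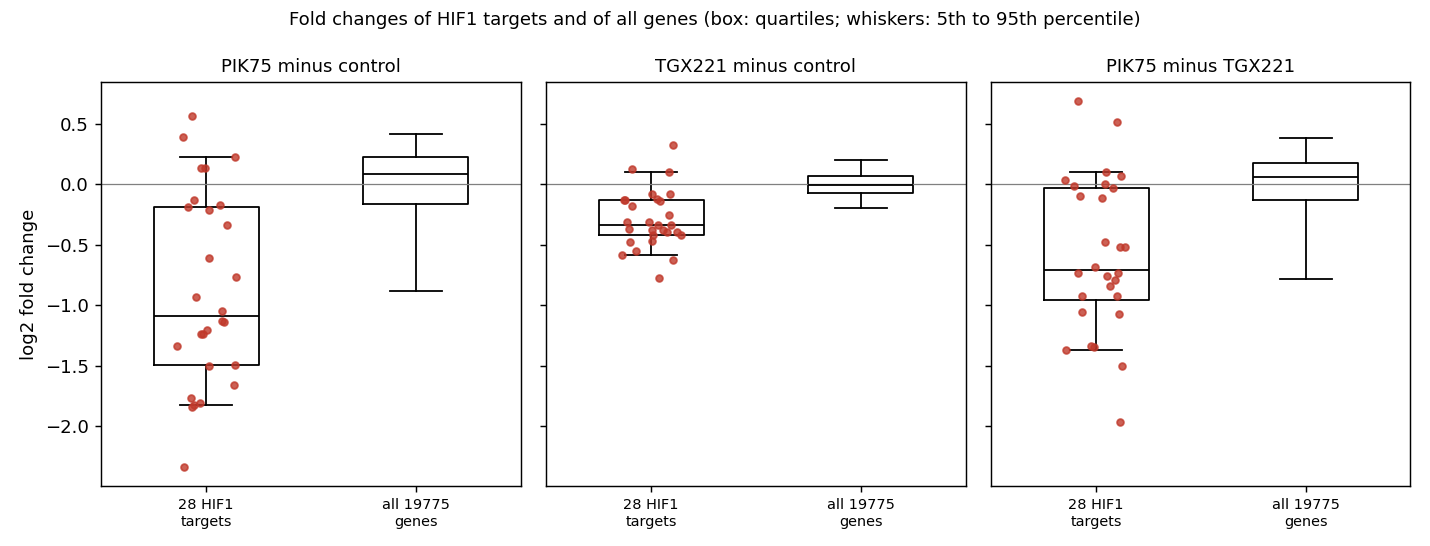
Log2 fold changes of the 28 measured genes (points with box) beside all 19775 genes (box) in the 3 comparisons; boxes span the quartiles and whiskers the 5th to 95th percentile. The medians of the 28 genes are -1.09, -0.34 and -0.71, against 0.09, 0.00 and 0.06 for all genes.

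With TGX221 the same genes leaned low by small amounts, and 1 passed the test. ANKRD37 was lower by 0.47 (SE 0.102, 95% interval -0.70 to -0.25, adjusted p = 0.0488), 1.39-fold, and 0 genes were called higher, against 0.399% of all genes called lower and 0.809% called higher. None of the 28 passed with a change of at least 1.5-fold, where 0.0152% of all genes were called lower and 0 higher. The ANKRD37 call was at the edge: it was lost under 11 of 19 alternatives, and across the 19 the change lay between -0.57 and -0.24 and the adjusted p between 0.00177 and 0.307. At an unadjusted p below 0.05, 12 of the 28 were lower and 2 (ANGPTL4 and RORA) higher, where 8.89% and 9.42% of all genes were. Of the 28, 25 had a log2 fold change below 0, compared with 50.7% of all genes, and the median was -0.34 against 0.00. The number called depended on scaling and weighting. With arrays scaled to the poly-A controls 8 were lower and 1 higher, where 44 and 464 of all 19775 genes were. With the hybridization controls 12 were lower, where 552 of all genes were lower and 81 higher. With array weights 4 were lower and 1 higher, where 579 and 734 of all genes were.

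By size alone, 13 of the 28 were among the 100 genes with the lowest TGX221 change, a count chosen after the values were seen. VEGFA (-0.77) ranked 2nd lowest of all genes, MXI1 (-0.62) 5th, P4HA1 (-0.58) 9th and BHLHE40 (-0.55) 12th. None of these 4 passed, with adjusted p of 0.375, 0.229, 0.15 and 0.171 in that order, and their control SDs were 0.739, 0.581, 0.412 and 0.224, against a median of 0.0638 over all genes. The count of 13 also depended on single control arrays: it was 6 without control array 3, 8 without control array 1 and 18 without control array 5. The median of the 28 was -0.17 without control array 3 and -0.48 without control array 5. Only 3 genes (ANKRD37, FAM162A and JMJD6) had all TGX221 arrays below all control arrays and 2 (ANGPTL4 and RORA) had them all above, against 12.4% and 11.5% of all genes. ANGPTL4, at 0.32, missed the threshold (adjusted p = 0.0771). For the strongest PIK75 genes the TGX221 intervals were -0.83 to 0.07 for BNIP3L, -0.66 to -0.01 for FAM162A, -1.72 to 0.17 for VEGFA and -0.79 to -0.15 for DDIT4.

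Set directly against TGX221, PIK75 gave lower values for 16 of the 28 genes and higher values for 2 (AK4 and JMJD6), against 22.3% and 25.1% of all genes. At 1.5-fold or more the counts were 14 and 1, against 8.44% and 1.73%. Of the 18 calls, 11 held under every alternative run, and AK4, BHLHE40, KDM3A, KDM4B, NDRG1, P4HA2 and WSB1 were lost under some. Without PIK75 array 5 or TGX221 array 3, KDM3A (adjusted p = 0.068 and 0.0685) and NDRG1 (0.0537 and 0.0956) did not pass, and NDRG1 also did not pass without PIK75 array 1 (0.096). This comparison is between 100 nM PIK75 and a labelled 1 mM of TGX221, so compound and dose cannot be told apart. The median difference was -0.71, against 0.06 for all genes. The largest differences were -1.96 for BNIP3L, -1.5 for FAM162A, -1.37 for PLOD2, -1.35 for HILPDA and -1.34 for DDIT4, with adjusted p from 4.03e-06 to 5.25e-05. VEGFA (-1.06, adjusted p = 0.0628), MXI1 (-0.52, 0.12), ADM (0.00, 0.985) and PLOD1 (-0.11, 0.0881) had fallen with PIK75 against control but did not pass here. Of these, VEGFA (-1.26, adjusted p = 0.000475) and MXI1 (-0.53, 0.0179) passed when the limma fit took the replicate number as a block. JMJD6 was higher with PIK75 by 0.69 (adjusted p = 2.16e-07). AK4 was higher by 0.52 (adjusted p = 0.00617), with every PIK75 array above every TGX221 array, while neither inhibitor passed against control. Another AK4 probe set differed by -1.02 (adjusted p = 0.00254 over all probe sets), and the mean of its probe sets turned the difference to -0.10 (adjusted p = 0.58). ANGPTL4 differed by 0.07 between the inhibitors (adjusted p = 0.514).

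Within each group these genes varied together from array to array. The array numbered 3 was the highest of its group for 21 of the 28 genes with PIK75, 20 with TGX221 and 22 in control, where it was highest for 25.7%, 32.6% and 31.8% of all genes. In 15 genes (53.6%) it was the highest in all 3 groups, compared with 3.5% of all genes. Control array 5 was the lowest control array for 23 of the 28 (82.1%, against 33.9% of all genes). It was also lowest for 19 of 21 glycolytic HIF1 targets, 20 of 28 further HIF targets and 9 of 12 other carbonic anhydrases and acid transporters. For collagens and other collagen modifiers the count was 7 of 18, and for neuroendocrine markers 4 of 13. Averaged over the 28 genes, the arrays read 9.09, 9.38 and 9.08 with PIK75, 9.66, 9.91 and 9.73 with TGX221, and 10.1, 10.3 and 9.79 in control. Control array 5 thus lay inside the range of the TGX221 arrays on this average, and no PIK75 array reached a TGX221 or control array.

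The spread between arrays of a group was correspondingly wide. The median SD of the 28 genes was 0.171 with PIK75, 0.203 with TGX221 and 0.234 in control, against 0.0784, 0.0627 and 0.0638 over all genes. VEGFA was widest in each group, with an SD of 0.893, 0.597 and 0.739 in the same order. Not every gene followed: the control SD was 0.0771 for DDIT4 and 0.021 for ANGPTL4. Several other lists showed a like order. Array 3 was highest in all 3 groups for 8 of 21 glycolytic HIF1 targets and 10 of 28 further HIF targets, and also for 3 of 12 other carbonic anhydrases and acid transporters, 4 of 19 other histone demethylases and 3 of 17 genes of the HIF machinery. It was so for 1 of 20 ATF4 targets, 1 of 13 neuroendocrine markers, 1 of 18 collagens and other collagen modifiers, 0 of 15 mitophagy and autophagy partners and 0 of 9 relatives of MXI1. Over all genes the deviations of PIK75 and control arrays with the same number correlated at -0.134, 0.122 and -0.0462. For arrays 3 and 5 the values were 0.0815 and -0.0226 between TGX221 and control, and 0.0649 and 0.235 between PIK75 and TGX221. Correlations over all genes cannot tell whether the 28 genes share a deviation by array number. What sets array 3 and control array 5 apart was not tested.

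**Figure D4:**
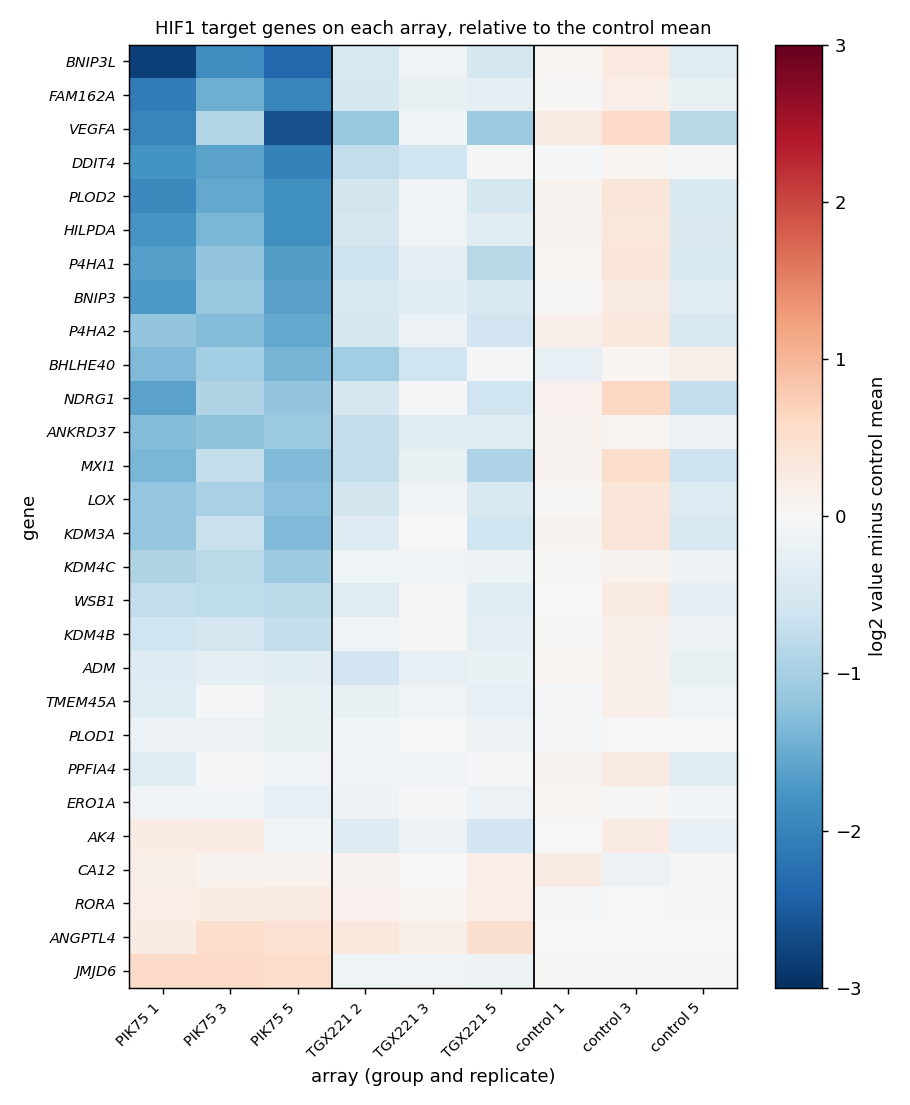
Each array's log2 value minus the control mean of the gene, for the 28 measured genes ordered by PIK75 change; columns are PIK75, TGX221 and control arrays with their replicate number. Blue is lower than the control mean and red higher. The PIK75 columns are blue for 23 genes on average, and within each group the array numbered 3 is the least blue or most red for most genes.

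Without control array 5, 23 of the 28 genes were called lower with PIK75 and the median was -1.22, and without control array 3 the count was 19 and the median -0.88. When 1 of the 6 PIK75 and control arrays was left out, ADM was the only gene whose PIK75 call was ever lost. That call was lost without control array 1, control array 3 or PIK75 array 1.

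More than 1 probe set was present for 21 of the 28 genes, 83 in all. Tested each on its own and adjusted over all probe sets, 40 fell and 14 rose with PIK75, where 19.9% and 30.3% of all probe sets did. The probe sets moved together for BNIP3, BNIP3L, HILPDA, PLOD2, ANGPTL4 and JMJD6, which all had every probe set called the same way. FAM162A changed by -1.84, -1.99 and -2.02 on its 3 bright probe sets. For VEGFA the 3 other probe sets changed by -0.17, -0.22 and -0.45 and did not pass, so the call rests on 1 of 4. The other probe set of ANKRD37 (0.22), P4HA1 (0.06), KDM3A (-0.03) and BHLHE40 (-0.08) also did not pass. These other probe sets had control means of 4.76 to 7.19, and the calls of these genes likewise rest on the brightest probe set alone. With TGX221 the other ANKRD37 probe set changed by -0.01. Probe sets opposed the brightest one in 3 genes: P4HA2 (1 probe set, 0.18), KDM4B (3, at 0.24 to 0.31, while another fell by 0.53) and RORA (1, at -0.84). ERO1A, not called on its brightest probe set, fell by 0.78 and 0.24 on its other 2. AK4 fell by 1.44 on a probe set that its brightest one (0.13) did not follow. Which transcripts these probe sets detect was not tested. No probe set of these genes passed with TGX221, where 0.0586% and 0.205% of all probe sets were called lower and higher, while at an unadjusted p below 0.05 the brightest probe sets gave the 12 and 2 genes above. When all probe sets of a gene were averaged, 22 genes were lower and 2 higher with PIK75, but the median was -0.48.

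**Figure D5:**
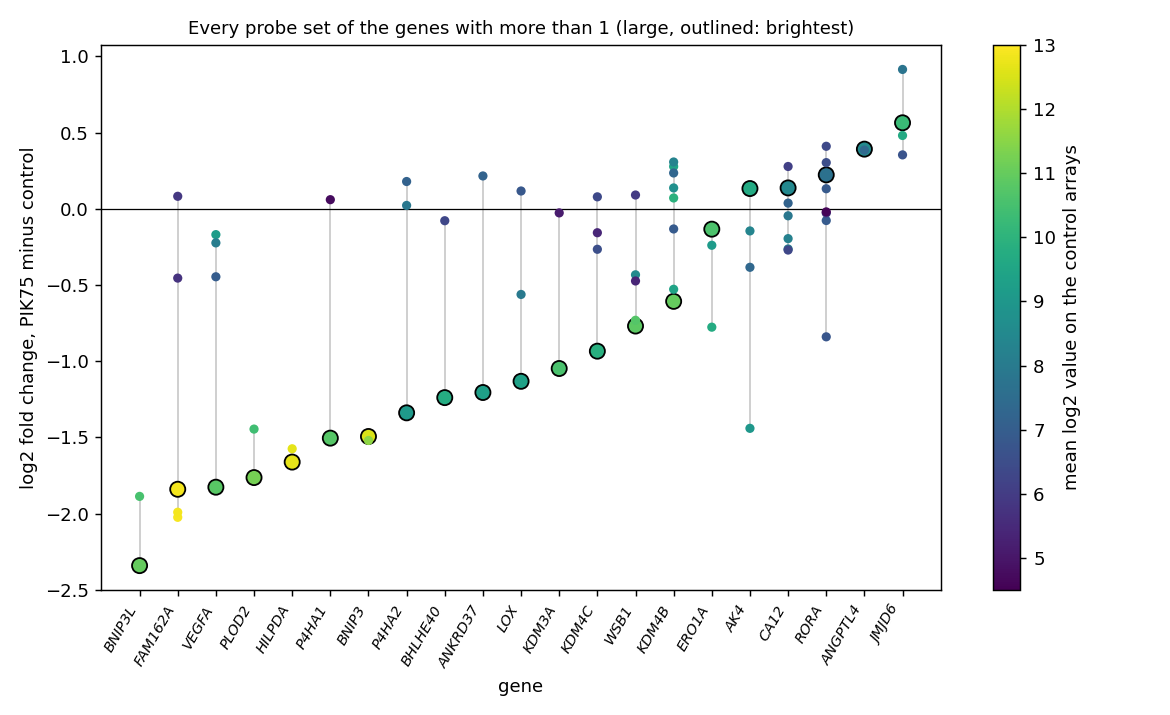
Log2 fold change, PIK75 minus control, of every probe set of the 21 genes with more than 1; the brightest probe set is large and outlined, and the colour is its mean log2 value on the control arrays. BNIP3, HILPDA and PLOD2 have probe sets close together, and all those of JMJD6 rose. FAM162A, VEGFA, AK4, P4HA1, P4HA2, ANKRD37, RORA and LOX are among the genes with probe sets far apart. Many small changes belong to dim probe sets.

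The transcripts of the HIF pathway itself moved in several directions with PIK75. HIF1A changed by -0.18 (SE 0.0644, adjusted p = 0.0278), with means of 12.18 with PIK75, 12.36 with TGX221 and 12.36 in control, and its partner ARNT by -0.39 (adjusted p = 6.59e-05). EPAS1, the oxygen-regulated subunit of HIF2, changed by 0.19 (adjusted p = 0.0427). The HIF1A and EPAS1 shifts were smaller in size than the 0.35 by which the hybridization controls read higher with PIK75. Scaling to those controls lowers the PIK75 values, which acts against the EPAS1 rise and not against the HIF1A fall. Of 17 measured genes of the machinery, 8 fell and 4 rose, against 25.2% and 35.2% of all genes. EGLN3 and EGLN1, prolyl hydroxylases that are themselves known HIF targets, fell by 1.56 (adjusted p = 0.000804) and 1.01 (adjusted p = 5.58e-06), while EGLN2 rose by 0.52 (adjusted p = 0.000363). CITED2, a HIF-induced inhibitor of the coactivators, fell by 1.32, the ARNT relative ARNT2 by 0.73 and the ubiquitin ligase subunit RBX1 by 0.59. VHL changed by -0.08 (adjusted p = 0.483). With TGX221 none of the 17 passed in limma, 3 lower and 1 higher had an unadjusted p below 0.05, and HIF1A changed by 0.00.

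Some other HIF targets also fell with PIK75, and others did not. Of 21 glycolytic targets, 15 fell and 1 rose, against 25.2% and 35.2% of all genes, and the median of the 21 was -0.44. The pyruvate dehydrogenase kinases PDK1 and PDK3 changed by -2.56 and -1.37, and the glycolytic enzymes PGK1 and PFKM by -0.95 and -0.84. Of 28 further HIF targets, 12 fell, 4 rose and 12 were not called, against 25.2% of all genes lower and 35.2% higher. The median of the 28 was -0.20, and EGLN3 is both on this list and in the HIF machinery above. The 4 of the 28 with the smallest p included GBE1, the glycogen branching enzyme, which changed by -1.9, and the oxidoreductase ERO1B by -1.40. The others were the cyclin CCNG2 at -1.23 and the nuclear receptor coactivator PNRC1 at -0.85. With TGX221, 2 of these 28 passed, both lower. They were PPP1R3C, a glycogen-targeting phosphatase subunit, at -0.59 (adjusted p = 0.047), and ERRFI1, an inhibitor of the EGF receptor, at -0.33 (adjusted p = 0.0395). The glycolytic list gave 0 calls with TGX221 in limma, with 8 lower and 0 higher at an unadjusted p below 0.05.

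DDIT4, which fell, is also known as a target of the stress factor ATF4. Of 20 genes on a list of ATF4 and its targets, 12 rose and 2 fell with PIK75, against 35.2% and 25.2% of all genes. The median of the 20 was 0.38. The amino acid transporter subunits SLC3A2 and SLC7A5 rose by 1.55 and 0.73, the pseudokinase TRIB3 by 1.41 and ATF4 itself by 0.57. Which factor accounts for the DDIT4 change was not tested.

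The median log2 value of the 13 measured neuroendocrine markers was 11.20 to 11.31 on the PIK75 arrays, 11.58 to 11.73 on the TGX221 arrays and 11.61 to 11.70 on the control arrays, above the median over all genes. With PIK75, 10 of the 13 fell and 1 rose, against 25.2% and 35.2% of all genes. The summed linear signal of the 13 was 41623 to 42498 on the PIK75 arrays, 54292 to 55568 on the TGX221 arrays and 54192 to 54648 on the control arrays. The decarboxylase DDC changed by -1.21, the vesicle protein SYT1 by -0.98, NCAM1 by -0.66 and CHGB by -0.51. Markers of other cell types had medians below that of all genes on every array, the highest being 8.10 for fibroblast markers on a PIK75 array. Some rose slightly with PIK75: 7 of 8 fibroblast, 3 of 6 leukocyte, 2 of 6 endothelial and 2 of 3 erythroid markers were called higher and 0 lower in limma. Over all genes 35.2% were called higher and 25.2% lower. At an unadjusted p below 0.05 the marker counts were 7, 4, 3 and 2 higher and 0 lower, where 39.1% and 26.1% of all genes were. The median changes of the 4 lists were 0.27, 0.18, 0.14 and 0.25, smaller than the 0.35 by which the hybridization controls differed. The fibroblast sum was 2213 to 2290 on PIK75 arrays, 1899 to 1965 on TGX221 arrays and 1818 to 1888 on control arrays. For leukocyte markers it was 946 to 1030, 824 to 868 and 812 to 893 in the same order, for endothelial markers 1036 to 1089, 875 to 905 and 914 to 937, and for erythroid markers 551 to 569, 467 to 537 and 458 to 490. Array signals have no true 0. The part of such shifts in the results on the HIF targets was not tested.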

How the data were processed

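The authors deposited log2 values for 54675 probe sets on 9 Affymetrix arrays, made with RMA per the submitters' processing notes (version not given in the sources used here), from 2 ug of labelled RNA per array per the labels' protocols. The dose unit of TGX221 could not be checked. The control samples carry the treatment label none, and the protocol names DMSO. Of the probe sets, 62 are controls, 41091 carry 1 gene symbol in the platform annotation, 1801 several and 11721 none. From the deposited log2 values, limma 3.58.1 (R 4.3.3; lmFit, eBayes) was fitted over 19775 genes and 3 group means without covariates (6 residual and 6.155 prior degrees of freedom), with Benjamini-Hochberg adjustment over all genes and a threshold of 0.05. An exact test of 3 arrays against 3 could not go below 0.1 and was not used. The small number of arrays limits the precision. The fit was tested on simulated data. Named beside the HIF targets were up to 4 called genes with the smallest PIK75 p of each list, every one called with TGX221, and HIF1A, EPAS1, ARNT, VHL, EGLN1, EGLN2 and EGLN3. The genes and lists were chosen with earlier results of these data known. Promoters came from RefSeq, and those of BNIP3L, HILPDA, VEGFA, NDRG1 and JMJD6 were not used here. Alternatives covered scaling, a filter on dim genes, probe set averaging, spread, array weights, the replicate block, thresholds and each array left out.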

Additional observations from a re-analysis of the deposited data

How the results depend on the processing

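Leaving out 1 array gave 19 to 23 genes lower and 3 or 4 higher with PIK75 against control, with a median of -1.22 to -0.88 and 3 to 9 genes among the 100 lowest. Arrays scaled to the hybridization controls, which shifted the median of all genes by -0.352, gave 24 lower, 1 higher and a median of -1.44, or -1.18 relative to all genes, as in the deposited scaling. That scaling called 13108 genes lower and 386 higher in all, the poly-A controls 5109 and 2469, cyclic loess 5024 and 4312, and the deposited values 4982 and 6965. A minimum of 1.5-fold left 18 lower and 0 higher, and averaged probe sets gave a median of -0.48. RORA reversed to -0.13 with the hybridization controls. Of the 23 calls, 15 held under every alternative run, and the exceptions were ADM, ANGPTL4, JMJD6, KDM4B, MXI1, PLOD1, RORA and VEGFA. For TGX221 against control, the genes called lower were 8 with the poly-A controls (1 higher), 12 with the hybridization controls, 4 with array weights (1 higher), and 0 with averaged probe sets, with only the compared groups, with the replicate block, at 0.01, at 1.5-fold and with the actin covariate. The poly-A controls, the hybridization controls and array weights called 44, 552 and 579 of all genes lower, and 464, 81 and 734 higher. Leaving out 1 array gave 0 or 1 lower, 0 or 1 higher, a median of -0.48 to -0.17, and 6 to 18 genes among the 100 lowest. For PIK75 against TGX221, the hybridization controls gave 26 lower, 1 higher and a median of -1.0, or -0.78 relative to all genes. Between the inhibitors that scaling called 11899 genes lower and 626 higher in all. Averaged probe sets gave 1 higher, a median of -0.27, KDM4B at 0.02 and AK4 at -0.10, both reversed, and 1.5-fold gave 1 higher. In that comparison 2 genes were among the 100 lowest, 1 with cyclic loess, array weights or the actin covariate, and 1 to 3 with an array left out. The causes were not tested. With the replicate number as a block, 21 genes were lower and 3 higher with PIK75 against control, and 0 and 0 with TGX221 against control. Between the inhibitors the block gave 18 and 2, where VEGFA (-1.26, adjusted p = 0.000475) and MXI1 (-0.53, 0.0179) then passed. Whether the numbers pair the samples is not known. The 100-lowest counts and the actin covariate were chosen after seeing the data. Limits: 3 arrays per group from 1 cell line, no measure of HIF1 protein or oxygen, scaling that assumes equal distributions, and a brightest probe set that may not speak for all transcripts of a gene.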
